A study of Homo sapiens with 9 samples.

Results

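Cytotoxic effector and natural killer (NK) cell genes were followed in orthotopic tumors of a murine anaplastic thyroid cancer. The genes are Gzma, Gzmb, Gzmk, Prf1, Nkg7, Ifng, Klrk1, Klrd1, Ncr1 and Eomes, taken from the expression table by symbol, and all 10 had a row among its 17369 genes. TBP3743 cells come from B6129SF1 mice with a thyroid-specific Braf mutation and a thyroid-specific Trp53 deletion, which every tumor here carries in its cancer cells. The adapted cells are TBP3743 cells recovered from subcutaneous tumors after serial passage through C57BL/6 mice, at round 3, and they are a single derived line. Original cells in B6129SF1 mice form the original/B6129SF1 group, adapted cells in B6129SF1 mice the adapted/B6129SF1 group, and adapted cells in C57BL/6 mice the adapted/C57BL/6 group, with 3 tumors each. The hosts were female and 6 weeks old, 100000 cells were placed in the thyroid, and tumors were collected after 14 days without treatment. The organism field of the sample labels reads Homo sapiens, whereas the host mice, the mm10 genome build and the gene symbols are those of the mouse.

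Cytotoxic T cells and NK cells kill a target cell by releasing granules that hold perforin and granzymes. Perforin opens the target's membrane, and the granzymes, a family of serine proteases, enter and cut proteins that start cell death. The same cells secrete interferon gamma, the product of Ifng, and carry activating and inhibitory receptors that decide whether a target is attacked. NK cells are recognised by Ncr1 and, in C57BL/6 mice, by the product of Klrb1c. The other genes followed here are also used by activated CD8 T cells, so none of them alone names a cell type in a whole tumor.

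Levels are FPKM from Cuffnorm, in which the authors corrected fragments for transcript length and for each library. Differences are on the log2(FPKM + 1) scale, on which the changes of genes at low levels come out too small. They were tested with limma over the 10263 genes that reached 1 FPKM in 3 or more tumors, in a model of the 9 tumors, and p-values were adjusted over those genes by the Benjamini-Hochberg method. A gene was called changed if its adjusted p was below 0.05 and its log2 fold change exceeded 1 in size. Of the 10 genes, 8 passed the filter, whereas Ncr1 and Eomes stayed below 1 FPKM in every tumor. Gzmk, Ifng and Klrk1 reached 1 FPKM in 0 original/B6129SF1 tumors and so passed through the adapted tumors alone. Entry in this way favors a difference from the original/B6129SF1 tumors. Single values were compared by exact two-sided permutation tests, for which the smallest p with 3 tumors in each group is 0.1. The labels number the tumors as biological replicates. The adapted/B6129SF1 against original/B6129SF1 comparison changes the cancer cells within the same host strain, and adapted/C57BL/6 against adapted/B6129SF1 changes the host strain with the same cells. Adapted/C57BL/6 against original/B6129SF1 changes both, which cannot be told apart within it. By the paper's methods the C57BL/6 and the B6129SF1 mice came from different suppliers. Host strain and supplier therefore cannot be told apart in any comparison between hosts.

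The whole tumors were not pure cancer cells, although the labels give the cell type as an epithelial cancer cell. Nkx2-1, a thyroid transcription factor, ranged from 23.5 to 44.5 FPKM over the 9 tumors, but Pax8 was at most 1.61 and Tshr, Slc5a5 and Foxe1 at most 0.248. Thyroglobulin, Tg, ranged from 0.0153 to 31.0 FPKM. The pan-leukocyte gene Ptprc ranged from 11.6 to 35.6 FPKM. The share of skeletal muscle genes in all FPKM was 7.83% for adapted/B6129SF1 replicate 3, 1.52% for adapted/C57BL/6 replicate 1 and no more than 0.188% for the rest. Relative depth, read from the smallest steps between low values and approximate, ranged from 0.960 to 1.35 of original/B6129SF1 replicate 1.

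Against the original/B6129SF1 tumors, 4 of the 8 genes tested rose in the adapted/C57BL/6 tumors, namely Gzmb, Gzma, Nkg7 and Ifng, where 2.42% of all genes tested were called higher. In the adapted/B6129SF1 tumors Nkg7 was called, where 2.36% of all genes were. In the adapted/C57BL/6 against the adapted/B6129SF1 tumors 0 of the 8 were called by limma, where 0% of all genes were called higher, and 3 of the 8 had an unadjusted p under 0.05. With both adapted groups weighted equally against the original/B6129SF1 group, Gzmb, Gzma, Nkg7 and Klrk1 were called, where 2.53% of all genes were. Of the genes called, Ifng and Klrk1 had passed the filter through the adapted tumors alone. These comparisons share tumors, the original/B6129SF1 tumors above all, and are not independent. In a whole tumor, more cells that express a gene and more RNA of it per cell cannot be told apart. The plot of the members by tumor shows every value.

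**Figure D1:**
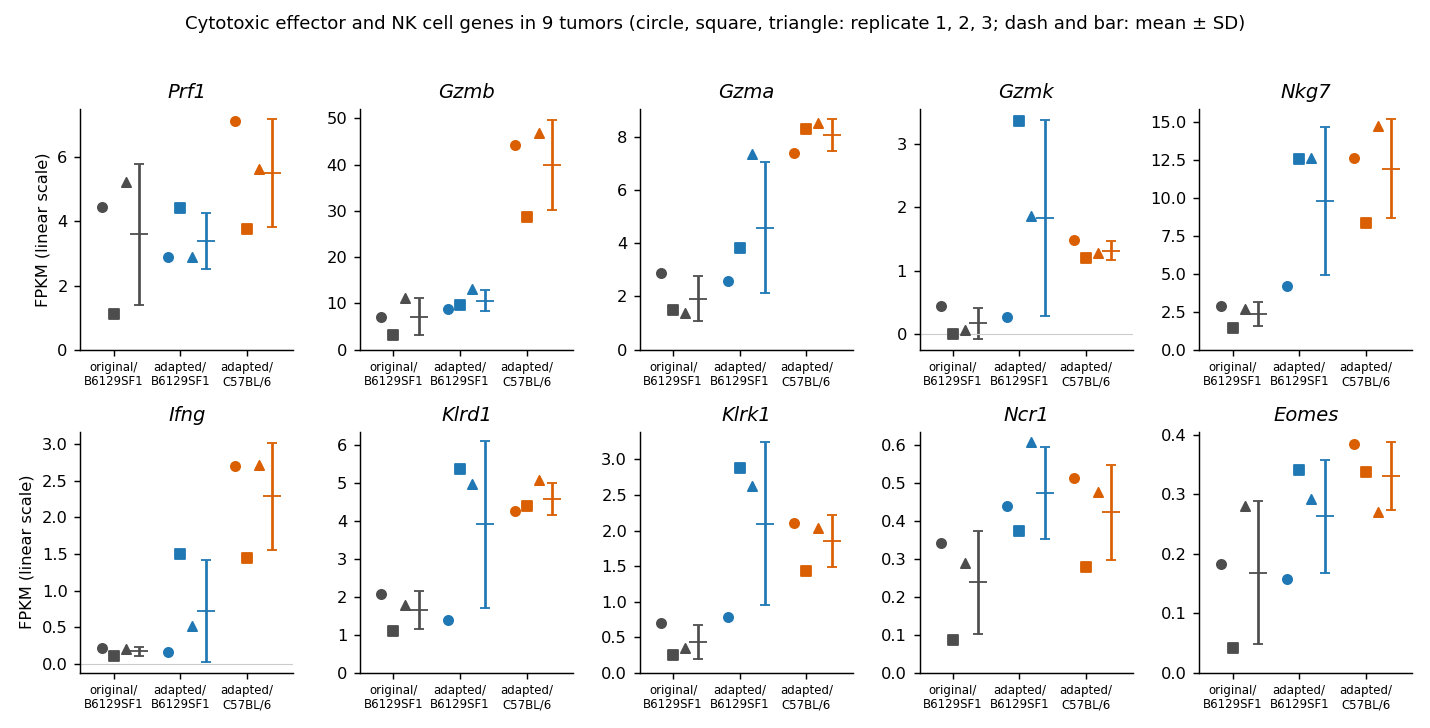
FPKM of the 10 genes (vertical axes, linear, each with its own scale) in the 9 tumors by group; circles, squares and triangles are replicates 1, 2 and 3, and the dash and bar are the mean and SD of 3 tumors. The 3 adapted/C57BL/6 tumors lie above all other tumors for Gzmb and Gzma, adapted/B6129SF1 replicate 1 lies low for Gzmk, Nkg7, Klrd1 and Klrk1, and Prf1 overlaps among all groups.

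Among the granule genes, Gzmb had the largest log2 fold change in adapted/C57BL/6 over original/B6129SF1 on the log2(FPKM + 1) scale, but not in adapted/B6129SF1. It encodes granzyme B, which cuts after aspartate and activates caspases in the target. Gzmb was 7.01, 3.22 and 11.2 FPKM in original/B6129SF1 replicates 1 to 3, 8.89, 9.71 and 13.2 in the adapted/B6129SF1 tumors, and 44.2, 28.7 and 46.8 in the adapted/C57BL/6 tumors. The lowest adapted/C57BL/6 tumor lay above the highest tumor of either other group, while the original/B6129SF1 and adapted/B6129SF1 tumors overlapped. The means were 7.16 ± 4.01, 10.6 ± 2.29 and 39.9 ± 9.79 FPKM (SD, n = 3 each), so the adapted/C57BL/6 mean was 5.58 times the original/B6129SF1 mean and 3.76 times the adapted/B6129SF1 mean. The log2 fold change was 2.43 (SE 0.36, limma adjusted p = 0.00700) for adapted/C57BL/6 against original/B6129SF1. It was called without any of the 9 tumors in turn, with an adjusted p of 0.00757 to 0.0395 from limma. Against the adapted/B6129SF1 tumors the difference was 1.81 (SE 0.36), with an unadjusted p of 0.000784 and an adjusted p of 0.322 from limma. For adapted/B6129SF1 against original/B6129SF1 it was 0.62 (adjusted p = 0.305, limma).

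Gzma encodes granzyme A, a trypsin-like protease. It was 2.88, 1.51 and 1.38 FPKM in the original/B6129SF1 tumors, 2.59, 3.82 and 7.33 in the adapted/B6129SF1 tumors, and 7.36, 8.29 and 8.51 in the adapted/C57BL/6 tumors. The adapted/C57BL/6 tumors were high and close together, and the adapted/B6129SF1 tumors bridged the other groups, from below original/B6129SF1 replicate 1 to just under the lowest adapted/C57BL/6 tumor. The rise in adapted/C57BL/6 over original/B6129SF1 was 1.66 on the log2 scale (SE 0.30, limma adjusted p = 0.0160). The other differences were 0.88 for adapted/B6129SF1 against original/B6129SF1 (adjusted p = 0.107, limma) and 0.79 for adapted/C57BL/6 against adapted/B6129SF1 (adjusted p = 0.777, limma). The call in adapted/C57BL/6 was lost without adapted/C57BL/6 replicate 3 (adjusted p = 0.0711), original/B6129SF1 replicate 2 (0.0525) or original/B6129SF1 replicate 3 (0.0661).

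Gzmk, another trypsin-like granzyme, was listed at 0.454, 0 and 0.0690 FPKM in the original/B6129SF1 tumors. It was 0.270, 3.37 and 1.86 FPKM in the adapted/B6129SF1 tumors and 1.49, 1.20 and 1.27 in the adapted/C57BL/6 tumors. All adapted/C57BL/6 tumors were above the original/B6129SF1 tumors, and adapted/B6129SF1 replicate 1 fell within the original/B6129SF1 range. The log2 fold changes over original/B6129SF1 were 1.12 (SE 0.39, adjusted p = 0.115) in adapted/B6129SF1 and 1.00 (SE 0.39, adjusted p = 0.165) in adapted/C57BL/6 by limma, neither called. Without adapted/B6129SF1 replicate 1 both were called, at 1.61 (adjusted p = 0.0121) and 1.00 (adjusted p = 0.0336). That tumor is in neither group of the adapted/C57BL/6 comparison and acts there only through the shared model. Leaving out any other tumor gave no call, at adjusted p up to 0.246 and 0.317 by limma.

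Gzmb, Gzma and Gzmk together came to 9.25 ± 4.09 FPKM for original/B6129SF1, 17.0 ± 5.33 for adapted/B6129SF1 and 49.3 ± 9.77 for adapted/C57BL/6 (SD over 3 tumors). Gzmb made up 74.8 ± 11.9% of this sum for original/B6129SF1, 64.0 ± 10.1% for adapted/B6129SF1 and 80.4 ± 4.54% for adapted/C57BL/6, and these shares overlapped between every pair of groups. Gzmk took 2.25 to 3.13% of the sum in the adapted/C57BL/6 tumors and up to 19.9% in the adapted/B6129SF1 tumors.

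Prf1 encodes perforin, through which granzymes reach the cytosol of the target. Its level was 4.44, 1.11 and 5.23 FPKM in the original/B6129SF1 tumors, 2.88, 4.40 and 2.90 in the adapted/B6129SF1 tumors, and 7.13, 3.75 and 5.62 in the adapted/C57BL/6 tumors. The 3 groups overlapped, with original/B6129SF1 replicate 2 the lowest of all tumors. The log2 fold changes over original/B6129SF1 were 0.07 (95% interval -0.83 to 0.96, adjusted p = 0.936) in adapted/B6129SF1 and 0.61 (-0.28 to 1.51, adjusted p = 0.381) in adapted/C57BL/6 by limma. The first turned to -0.42 without original/B6129SF1 replicate 2 and to -0.09 without adapted/B6129SF1 replicate 2. The ratio of Gzmb to Prf1 FPKM was 1.58 to 2.91 in the original/B6129SF1, 2.21 to 4.55 in the adapted/B6129SF1 and 6.20 to 8.33 in the adapted/C57BL/6 tumors. The adapted/C57BL/6 ratios did not overlap those of either other group (exact permutation p = 0.1 against each, two-sided, the smallest that 3 against 3 allows).

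Nkg7 encodes a membrane protein of cytotoxic granules that is needed for their release. It was 2.91, 1.44 and 2.66 FPKM in the original/B6129SF1 tumors, 4.17, 12.5 and 12.6 in the adapted/B6129SF1 tumors, and 12.6, 8.38 and 14.8 in the adapted/C57BL/6 tumors. Every adapted tumor was above every original/B6129SF1 tumor, and adapted/B6129SF1 replicate 1 was the lowest of the adapted tumors. Nkg7 rose in both, by 1.59 in adapted/B6129SF1 (SE 0.39, limma adjusted p = 0.0408) and by 1.95 in adapted/C57BL/6 (SE 0.39, limma adjusted p = 0.0222). The call in adapted/B6129SF1 was lost without any tumor except adapted/B6129SF1 replicate 1 or adapted/C57BL/6 replicate 2, at adjusted p from 0.0588 to 0.107. It was also lost with only the compared groups in the model (adjusted p = 0.0821). In adapted/C57BL/6 it was lost without adapted/C57BL/6 replicate 1 (0.0648) or 3 (0.0983) or original/B6129SF1 replicate 1 (0.0537), 2 (0.0698) or 3 (0.0666). Between the adapted groups Nkg7 differed by 0.36 (95% interval -0.52 to 1.24, adjusted p = 0.917, limma).

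**Figure D2:**
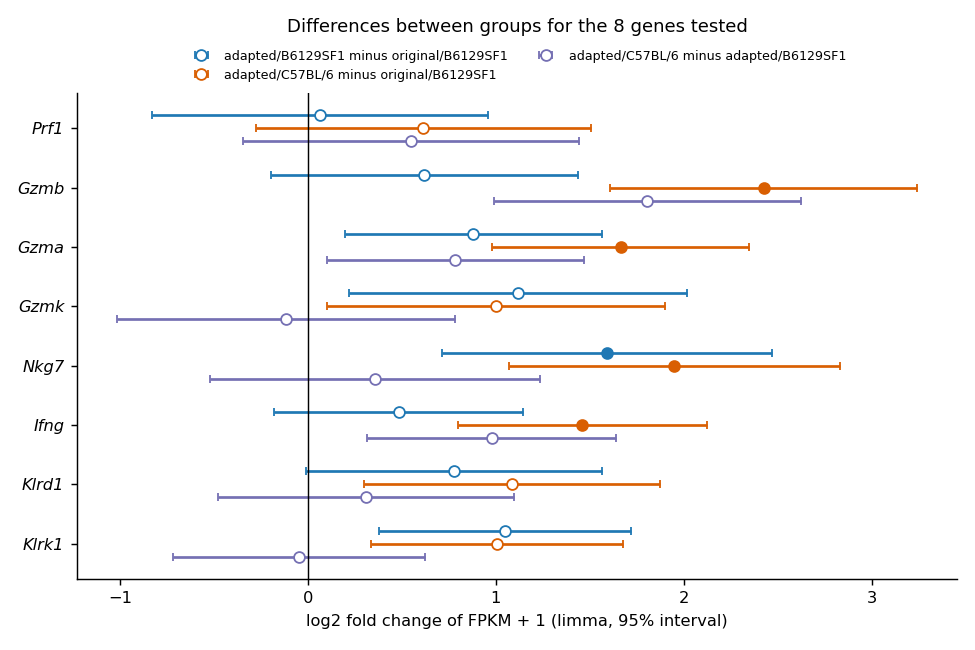
Log2 fold change of FPKM + 1 (horizontal axis) with 95% intervals from limma for the 8 genes tested in 3 comparisons, which share tumors; filled points were called and open points were not. The filled points are Gzmb, Gzma, Nkg7 and Ifng in adapted/C57BL/6 against original/B6129SF1 and Nkg7 in adapted/B6129SF1 against original/B6129SF1. The intervals are not adjusted for the number of genes tested.

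Ifng encodes interferon gamma, the cytokine that induces antigen presentation genes and activates macrophages. It was 0.216, 0.107 and 0.202 FPKM in the original/B6129SF1 tumors, 0.158, 1.504 and 0.524 in the adapted/B6129SF1 tumors, and 2.71, 1.45 and 2.72 in the adapted/C57BL/6 tumors. Within the adapted/B6129SF1 group the highest tumor, replicate 2, was just above the lowest adapted/C57BL/6 tumor, and replicate 1 was within the original/B6129SF1 range. The rise in adapted/C57BL/6 over original/B6129SF1 was 1.46 (SE 0.29, limma adjusted p = 0.0230). It was lost without adapted/C57BL/6 replicate 1 (0.0724) or 3 (0.103) or original/B6129SF1 replicate 1 (0.0653), 2 (0.0662) or 3 (0.0764), and without both tumors with over 1% muscle transcripts (0.0682). For adapted/B6129SF1 against original/B6129SF1 the log2 fold change was 0.48 (adjusted p = 0.324), and for adapted/C57BL/6 against adapted/B6129SF1 it was 0.98 (unadjusted p = 0.00887, adjusted p = 0.602, limma).

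Of the receptors, Klrk1 encodes NKG2D, an activating receptor for stress-induced ligands. It was 0.694, 0.247 and 0.344 FPKM in the original/B6129SF1 tumors, 0.788, 2.88 and 2.63 in the adapted/B6129SF1 tumors, and 2.10, 1.44 and 2.04 in the adapted/C57BL/6 tumors. Every adapted tumor was above every original/B6129SF1 tumor, although adapted/B6129SF1 replicate 1 was so by a small margin. The log2 fold changes were 1.05 in adapted/B6129SF1 (SE 0.29, adjusted p = 0.0645) and 1.00 in adapted/C57BL/6 (SE 0.29, adjusted p = 0.0772) by limma, neither called. Both adapted groups together gave 1.03 (SE 0.26, limma adjusted p = 0.0354), which was called. That call was lost without any of 7 tumors, with adapted/B6129SF1 replicate 1 and adapted/C57BL/6 replicate 2 the exceptions, at adjusted p up to 0.117. Without adapted/B6129SF1 replicate 1, Klrk1 was called in adapted/B6129SF1 at 1.41 (adjusted p = 0.00930) and in adapted/C57BL/6 at 1.00 (adjusted p = 0.0149). That tumor is in neither group of the adapted/C57BL/6 comparison and acts there only through the shared model. Leaving out any other tumor gave no call in either, at adjusted p up to 0.163 and 0.213 by limma.

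Klrd1 encodes CD94, which pairs with NKG2 chains to form receptors for the class Ib molecule Qa-1. Its level was 2.07, 1.10 and 1.78 FPKM in the original/B6129SF1 tumors, 1.38, 5.36 and 4.96 in the adapted/B6129SF1 tumors, and 4.26, 4.39 and 5.06 in the adapted/C57BL/6 tumors. The adapted/C57BL/6 tumors were above the original/B6129SF1 tumors, and adapted/B6129SF1 replicate 1 was within the original/B6129SF1 range while replicate 2 was the highest of all. The log2 fold changes over original/B6129SF1 were 0.78 (adjusted p = 0.192) in adapted/B6129SF1 and 1.09 (adjusted p = 0.0972) in adapted/C57BL/6 by limma. Without adapted/B6129SF1 replicate 1 they were 1.24 (adjusted p = 0.0113) and 1.09 (adjusted p = 0.00825), both called. That tumor is in neither group of the adapted/C57BL/6 comparison and acts there only through the shared model. Leaving out any other tumor gave no call, at adjusted p up to 0.391 and 0.249 by limma.

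Ncr1 encodes NKp46, the activating receptor most particular to NK cells among these genes. It was 0.341, 0.0847 and 0.289 FPKM in the original/B6129SF1 tumors, 0.440, 0.375 and 0.609 in the adapted/B6129SF1 tumors, and 0.512, 0.279 and 0.477 in the adapted/C57BL/6 tumors. The adapted/B6129SF1 tumors were above the original/B6129SF1 tumors by a small margin (exact permutation p = 0.1, two-sided), while the adapted/C57BL/6 tumors overlapped them (exact permutation p = 0.3, two-sided). Eomes encodes a T-box factor that directs NK cell and effector T cell programs. It was 0.183, 0.0406 and 0.281 FPKM in the original/B6129SF1 tumors, 0.157, 0.340 and 0.292 in the adapted/B6129SF1 tumors, and 0.384, 0.338 and 0.270 in the adapted/C57BL/6 tumors. All groups overlapped for Eomes, and at these levels below 1 FPKM a difference could not be resolved with 3 tumors a group.

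Of the 8 genes tested, 7 had non-overlapping higher values in adapted/C57BL/6 than in original/B6129SF1, where 14.9% of all genes tested did. Among them, Gzmk, Ifng and Klrk1 passed the filter through the adapted tumors alone. That way of entry itself favors a gap from the original/B6129SF1 tumors, so these genes add no support to the counts against that group. For adapted/B6129SF1 against original/B6129SF1 non-overlapping genes were 2 of 8, namely Nkg7 and Klrk1, where 13.6% of all genes tested did not overlap. Ncr1, which was not tested, did not overlap either. For adapted/C57BL/6 against adapted/B6129SF1 they were 2 of 8, Gzma and Gzmb, against 6.32% of all genes tested. For both adapted groups against original/B6129SF1 they were also 2 of 8, Nkg7 and Klrk1, against 8.54%. The median log2 fold change over the 8 genes tested was 0.83 in adapted/B6129SF1, 1.27 in adapted/C57BL/6 and 1.04 in both adapted groups, each against original/B6129SF1, and 0.45 in adapted/C57BL/6 against adapted/B6129SF1. Over all genes tested the medians were -0.03, -0.03, -0.03 and 0.01 in the same order. The medians of the 8 genes against original/B6129SF1 include Gzmk, Ifng and Klrk1, whose way of entry favors a rise. Those medians are therefore descriptions and add no support either. The summed level of the 10 genes was 8.85 to 23.5 FPKM in the original/B6129SF1, 21.7 to 47.0 in the adapted/B6129SF1 and 58.2 to 87.6 in the adapted/C57BL/6 tumors, and Gzmb was the most abundant on average in each group. In the original/B6129SF1 group its range overlapped that of the next gene, Prf1, and in the adapted/B6129SF1 group that of Nkg7, whereas in the adapted/C57BL/6 group it lay above every other gene followed.

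Within groups the same tumors tended to be low. Original/B6129SF1 replicate 2 was the lowest of its group for 9 of 10 genes, adapted/B6129SF1 replicate 1 for 9 of 10, and adapted/C57BL/6 replicate 2 for 7 of 10. The same tumors had the lowest Ptprc of their groups, at 11.6, 21.9 and 17.6 FPKM. Their mean log2(FPKM + 1) of Cd3d, Cd3e and Cd3g was also the lowest, at 0.655, 1.01 and 1.97. With each tumor's values taken as deviations from its group mean, Pearson's r over the 9 tumors ranged from 0.07 to 0.95 for the 45 pairs of genes. Gzmk, Nkg7, Klrk1 and Klrd1 were the most alike, with r of 0.85 to 0.95 for their 6 pairs. Gzmb, Prf1, Ncr1 and Eomes had r of 0.44 to 0.84 among themselves, and 0.15 to 0.68 with those 4. These sets were drawn after the values were seen, the tumors share one scaling factor for all genes, and the coefficients are descriptions of 9 tumors. The part of leukocyte content in the coefficients was not tested.

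**Figure D3:**
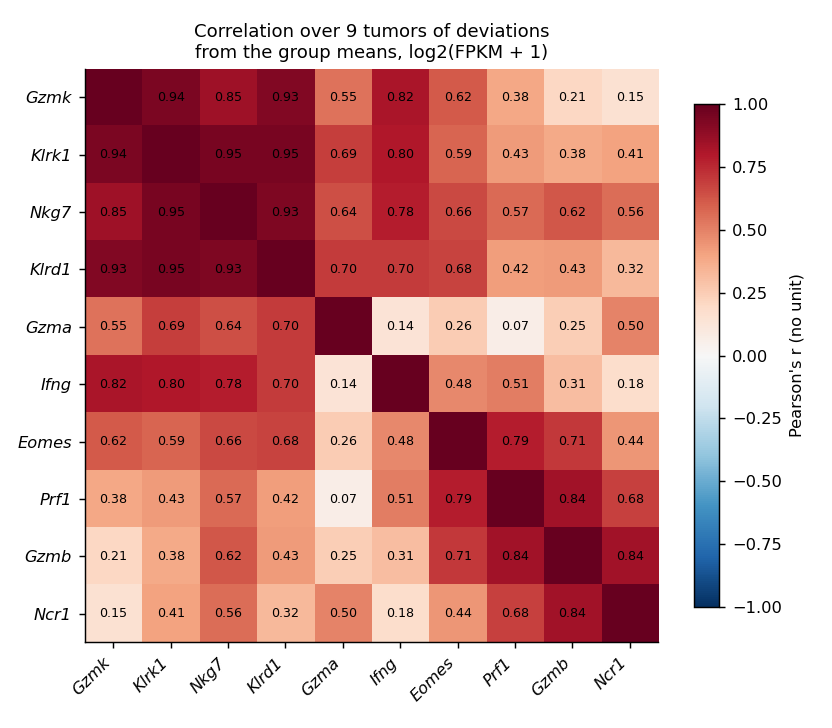
Pearson's r (color, no unit) between genes over 9 tumors, computed on log2(FPKM + 1) after subtracting the group means. Gzmk, Klrk1, Nkg7 and Klrd1 form the block at the upper left with r of 0.85 to 0.95, and Prf1, Gzmb, Ncr1 and Eomes, at the lower right, range from 0.44 to 0.84.

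Some T cell receptor genes were also called higher in adapted tumors. Of the 13 T cell receptor and coreceptor genes tested, limma called Cd3g in adapted/B6129SF1 and Cd2, Cd3g and Lat in adapted/C57BL/6 against original/B6129SF1, 0 in adapted/C57BL/6 against adapted/B6129SF1 and 5 in both adapted groups together. Over all genes tested, 2.36%, 2.42%, 0% and 2.53% were called higher in these comparisons, in the same order. Of the T cell genes called, Lat and Cd247 reached 1 FPKM in 0 original/B6129SF1 tumors and so passed the filter through the adapted tumors alone. Cd3e was 0.488, 0.346 and 0.559 FPKM in the original/B6129SF1 tumors, 0.610, 3.29 and 2.43 in the adapted/B6129SF1 tumors, and 2.72, 1.499 and 1.89 in the adapted/C57BL/6 tumors. Cd8a was 1.01, 0.532 and 0.416 FPKM in the original/B6129SF1, 0.541, 4.78 and 3.55 in the adapted/B6129SF1 and 5.21, 3.11 and 4.16 in the adapted/C57BL/6 tumors. Adapted/B6129SF1 replicate 1, the tumor low for most cytotoxic genes of its group, was also low for both. Cd4 ranged from 0.351 to 2.57 FPKM over the 9 tumors. The sum of Cd3d, Cd3e and Cd3g was 1.79 to 2.50 FPKM in the original/B6129SF1, 3.31 to 15.7 in the adapted/B6129SF1 and 9.68 to 14.8 in the adapted/C57BL/6 tumors. Cd3d and Cd3e were at most 0.842 and 0.559 FPKM in the original/B6129SF1 tumors, so they too passed the filter through the adapted tumors alone.

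Each gene was therefore set beside the mean log2(FPKM + 1) of Cd3d, Cd3e and Cd3g of the same tumor. On this scale Nkg7 was higher in all 6 adapted tumors than in all 3 original/B6129SF1 tumors, by 0.45 (exact permutation p = 0.0238, two-sided, the smallest that 6 against 3 allows). With a pseudocount of 0.1 in place of 1 this was 0.11 with overlap (exact permutation p = 0.548). With the leukocyte gene Ptprc as the reference it was 0.94 without overlap (exact permutation p = 0.0238), so the size depended on the setting. Relative to the Cd3 genes, Eomes was lower in all 6 (mean difference -1.16, exact permutation p = 0.0238). It overlapped with the pseudocount of 0.1 (-1.35) or with Ptprc as the reference (-0.67). Relative to the Cd3 genes, Ncr1 was lower by a mean difference of -1.09 (exact permutation p = 0.0476) and Klrd1 by -0.38 (exact permutation p = 0.0476). For Ncr1 this was -1.24 with the pseudocount of 0.1 (exact permutation p = 0.0952) and -0.60 with Ptprc. Mean FPKM of Ncr1 and Eomes was 1.88 and 1.77 times the original/B6129SF1 mean. Lower here thus means a smaller rise than the Cd3 genes had, on a scale that compresses levels under 1 FPKM. The Klrd1 difference was -0.76 with the pseudocount of 0.1 and turned to 0.11 with Ptprc as the reference (exact permutation p = 0.690). Gzmb relative to the Cd3 genes was 0.97 higher in adapted/C57BL/6 than in original/B6129SF1 and 1.53 higher than in adapted/B6129SF1, with no overlap in either case (exact permutation p = 0.1 each). With the pseudocount of 0.1 the first was 0.38 with overlap (exact permutation p = 0.5) and the second 1.46 without. With Ptprc as the reference they were 1.64 and 1.89, both without overlap. Relative to the Cd3 genes, Gzmb in adapted/B6129SF1 was -0.56 against original/B6129SF1, with overlap. Ifng was -0.69 in adapted/B6129SF1 against original/B6129SF1 with no overlap, 0.70 in adapted/C57BL/6 against adapted/B6129SF1 with no overlap, and 0.0043 in adapted/C57BL/6 against original/B6129SF1. That last value depended on the setting, and was 0.87 with the pseudocount of 0.1 and 0.68 with Ptprc as the reference, both with no overlap. The Ifng difference of adapted/B6129SF1 overlapped under both, at -0.55 and -0.39. Over the 40 tests of 10 genes in 4 comparisons the smallest Benjamini-Hochberg adjusted p was 0.2, so none passed the correction. The median over the 10 genes was also taken within each tumor, and the group means of these tumor medians differed by -0.37, -0.31, 0.06 and -0.34 in adapted/B6129SF1, adapted/C57BL/6, adapted/C57BL/6 against adapted/B6129SF1 and both adapted groups. With Ptprc in place of the Cd3 genes the same differences were -0.06, 0.36, 0.42 and 0.15, so the direction in adapted/C57BL/6 and in both adapted groups depended on the reference chosen.

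**Figure D4:**
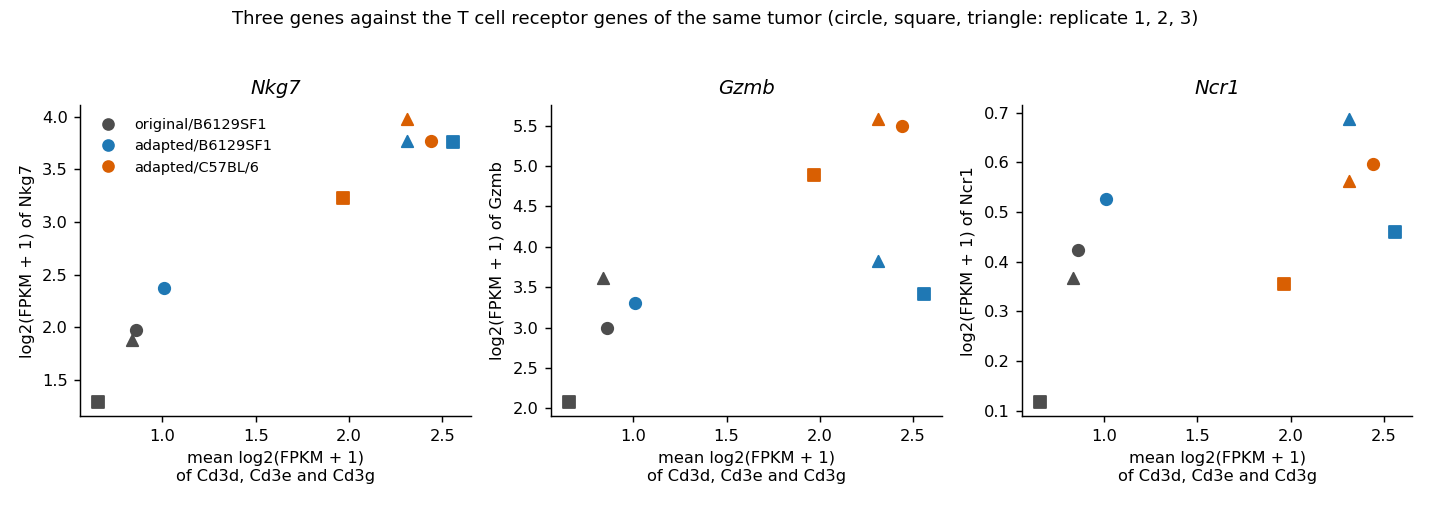
Log2(FPKM + 1) of Nkg7, Gzmb and Ncr1 (vertical axes, each with its own scale, not starting at 0) against the mean log2(FPKM + 1) of Cd3d, Cd3e and Cd3g (horizontal axis) in 9 tumors; colors are groups and markers replicates. Nkg7 is higher in the tumors with more Cd3 transcripts, the adapted/C57BL/6 tumors have more Gzmb than adapted/B6129SF1 tumors of similar Cd3 level, and Ncr1 stays below 0.7 throughout.

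Klrb1c, a further NK cell gene, was 0.349, 0.0435 and 0.217 FPKM in the original/B6129SF1, 0.196, 0.311 and 0.482 in the adapted/B6129SF1 and 0.516, 0.597 and 0.536 in the adapted/C57BL/6 tumors, the last above all others and still below 1 FPKM. Klrc1, the inhibitory NKG2A partner of CD94, ranged from 0.553 to 0.994 FPKM in the original/B6129SF1, 0.599 to 3.65 in the adapted/B6129SF1 and 2.32 to 4.39 in the adapted/C57BL/6 tumors. Its log2 fold change in adapted/C57BL/6 over original/B6129SF1 was 1.33 (adjusted p = 0.0672, limma), not called, and it too passed the filter through the adapted tumors alone. Of the 37 other NK receptor and adaptor genes listed, 35 had a row and 14 were tested. Limma called Klra2 higher and Klra4 lower in adapted/B6129SF1, and Klra2 and Slamf7 higher and Klra4 lower in adapted/C57BL/6, against original/B6129SF1. The median log2 fold changes of the 14 genes were 0.66 and 0.75. These genes include Tyrobp, Fcer1g and Fcgr3, each at 130 FPKM or more in every tumor, against at most 0.609 for Ncr1. The medians are therefore not a measure of NK cells. Over all genes, 2.36%, 2.42%, 0% and 2.53% were called higher and 0.857%, 0.672%, 0.0292% and 0.857% lower. These shares are for adapted/B6129SF1, adapted/C57BL/6, adapted/C57BL/6 against adapted/B6129SF1 and both adapted groups, in that order.

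Klra4 encodes Ly49D, an activating receptor of the Ly49 family. Unlike the other genes of this list that were called, it was lower in adapted tumors. Its level was 31.0, 17.8 and 28.1 FPKM in the original/B6129SF1, 4.82, 8.62 and 7.24 in the adapted/B6129SF1 and 15.1, 7.75 and 9.70 in the adapted/C57BL/6 tumors. Every adapted tumor was below every original/B6129SF1 tumor, and Klra4 fell by 1.75 (SE 0.29, adjusted p = 0.0117) and by 1.18 (SE 0.29, adjusted p = 0.0471) on the log2 scale by limma. Klra2, which encodes Ly49B, was 5.61, 3.02 and 4.75 FPKM in the original/B6129SF1, 10.3, 18.1 and 24.3 in the adapted/B6129SF1 and 20.3, 10.4 and 21.7 in the adapted/C57BL/6 tumors. It rose by 1.72 and 1.73 (adjusted p = 0.0236 and 0.0255, limma). Klra4 and Klra2 were far above Ncr1 and Klrb1c in every tumor, and which cells expressed them was not tested. Klra8, for Ly49H, was at most 0.564 FPKM. The Ly49 genes are near-identical copies that differ in number between mouse strains, so the assignment of their reads is uncertain. Slamf7, a receptor of NK and other lymphocytes, was 0.260 to 0.469 FPKM in the original/B6129SF1 and 1.00 to 2.32 in the adapted/C57BL/6 tumors (log2 fold change 1.02, adjusted p = 0.0309, limma), and it passed the filter through the adapted tumors alone.

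Among the ligands, H2-T23, which encodes the Qa-1 heavy chain bound by CD94 receptors, was 76.9, 99.2 and 83.1 FPKM in the original/B6129SF1, 166, 173 and 147 in the adapted/B6129SF1 and 150, 177 and 220 in the adapted/C57BL/6 tumors. Every adapted tumor was above every original/B6129SF1 tumor. Its log2 fold change was 1.06 in adapted/C57BL/6 (SE 0.16, adjusted p = 0.00670), which was called, and 0.91 in adapted/B6129SF1 (SE 0.16, adjusted p = 0.0129), below the threshold of 1, by limma. Of the ligands of NKG2D and CD94, 6 of 10 had a row and 5 were tested. H2-T23 was the only gene called in any of the 4 comparisons, where 2.42% of all genes were called higher in adapted/C57BL/6. The others tested, Raet1d, Raet1e, Ulbp1 and H60b, had lower mean FPKM in adapted/B6129SF1 than in original/B6129SF1. The median log2 fold change of the 5 was -0.31 in adapted/B6129SF1, with 1 above 0. It was 0.05 in adapted/C57BL/6, with 4 above 0.

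Of the 18 other granule and death ligand genes, 15 were tested and 0 were called by limma in any of the 4 comparisons. Their median log2 fold changes over original/B6129SF1 were 0.02 in adapted/B6129SF1 and 0.45 in adapted/C57BL/6. Fasl, the Fas ligand, was 0.0629 to 0.264 FPKM in the original/B6129SF1, 0.160 to 1.07 in the adapted/B6129SF1 and 0.530 to 0.821 in the adapted/C57BL/6 tumors, too low to be tested. The genes Gzmc to Gzmg, further granzymes encoded next to Gzmb in the same cluster, were among those not called. Their sum was 44.0 to 205 FPKM in the original/B6129SF1, 38.01 to 96.6 in the adapted/B6129SF1 and 54.4 to 117 in the adapted/C57BL/6 tumors, overlapping between all groups. Gzmc was 20.6, 8.37 and 32.3 FPKM in the original/B6129SF1, 20.6, 11.5 and 8.99 in the adapted/B6129SF1 and 31.0, 17.3 and 44.3 in the adapted/C57BL/6 tumors (log2 fold change of adapted/C57BL/6 over original/B6129SF1 0.66, adjusted p = 0.469, limma). Gzmg was 41.8, 11.4 and 56.3, then 13.4, 29.6 and 8.43, then 10.7, 8.97 and 14.97 FPKM in these groups (log2 fold change -1.34, adjusted p = 0.203, limma). Original/B6129SF1 replicate 2 was low for both within its group. Gzmc to Gzmg are near-identical in sequence, and how reads were divided among them is uncertain. As deviations from group means, their r with Gzmb, Prf1 and Ncr1 was 0.32 to 0.92 and with Gzmk, Nkg7, Klrk1 and Klrd1 -0.25 to 0.44, over the same 9 tumors. With the other genes followed it was 0.26 to 0.66 for Eomes, 0.11 to 0.54 for Ifng and -0.31 to -0.11 for Gzma.

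**Figure D5:**
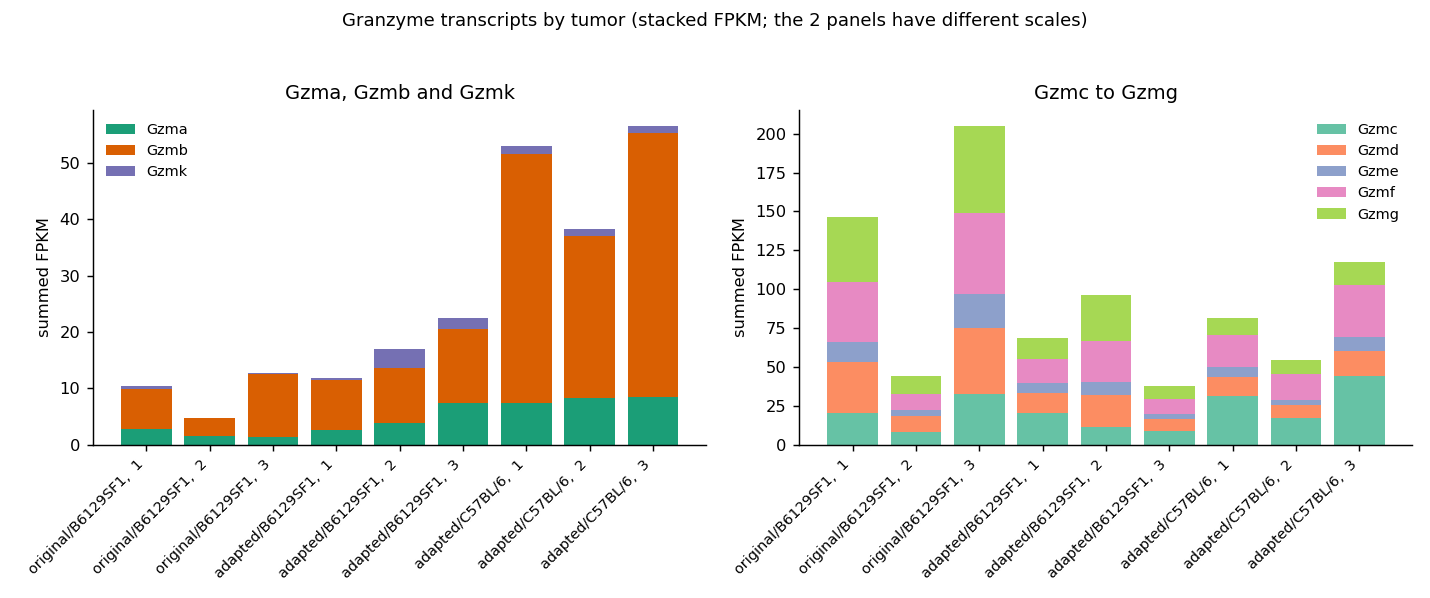
Stacked FPKM of Gzma, Gzmb and Gzmk (left) and of Gzmc to Gzmg (right) in each of the 9 tumors; the vertical axes start at 0 and have different scales. The left sum is highest in the 3 adapted/C57BL/6 tumors, where most of it is Gzmb, while the right sum is highest in original/B6129SF1 replicates 3 and 1 and overlaps between groups.

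Some of these proteases can also be made by mast cells. The summed level of 9 mast cell markers was 21.98 to 36.6 FPKM in the original/B6129SF1, 42.6 to 128.5 in the adapted/B6129SF1 and 21.9 to 34.5 in the adapted/C57BL/6 tumors, where Gzmb was highest. Of the 8 mast cell markers tested, limma called 0 higher in any comparison. Only the tryptase gene Tpsab1 was called lower, in adapted/C57BL/6 against either other group. Both comparisons change the host strain, and Tpsab1 is counted in the summed level. Whether its lower level came from fewer mast cells or from the host strain was not tested. The part of mast cells in the granzyme levels was not tested. Summed B cell markers stayed between 0.201 and 1.52 FPKM, and 0 of 7 macrophage markers and 0 of 5 neutrophil markers tested were called in any comparison. Of 8 leukocyte genes, limma called Arhgdib in adapted/B6129SF1, where 2.36% of all genes were called higher. Ptprc differed by 0.87 in adapted/B6129SF1 and 0.78 in adapted/C57BL/6 on the log2 scale (limma adjusted p = 0.0959 and 0.134). The summed leukocyte genes were 276 to 317 FPKM in the original/B6129SF1, 425 to 557 in the adapted/B6129SF1 and 329 to 539 in the adapted/C57BL/6 tumors, and their part in the differences was not tested.

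Serpinb9, an intracellular inhibitor of granzyme B, was 4.86, 4.89 and 4.51 FPKM in the original/B6129SF1, 5.55, 7.25 and 10.1 in the adapted/B6129SF1 and 9.18, 8.82 and 9.10 in the adapted/C57BL/6 tumors. All adapted tumors were above the original/B6129SF1 tumors. Its log2 fold change in adapted/C57BL/6 was 0.80 (SE 0.17, adjusted p = 0.0303, limma), below the threshold of 1, and 0 of the 4 granzyme inhibitor genes were called in any comparison.

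Of the genes that induce Ifng, Il12rb1 encodes the receptor chain shared by interleukins 12 and 23. It was 0.855, 0.289 and 0.561 FPKM in the original/B6129SF1, 2.17, 4.05 and 4.09 in the adapted/B6129SF1 and 3.80, 5.42 and 6.10 in the adapted/C57BL/6 tumors. Every adapted tumor exceeded every original/B6129SF1 tumor, adapted/B6129SF1 replicate 1 included, and Il12rb1 rose by 1.48 (SE 0.24, adjusted p = 0.0113) and 1.96 (SE 0.24, adjusted p = 0.00356) by limma. It reached 1 FPKM in 0 original/B6129SF1 tumors, so that it too was tested only because the adapted tumors were high. Il15ra, which presents interleukin 15 to NK and CD8 T cells, rose by 1.32 in adapted/C57BL/6 (SE 0.33, adjusted p = 0.0499, limma), from 2.45 to 3.94 FPKM in the original/B6129SF1 to 7.02 to 11.1 FPKM. Of the 9 genes of this list tested, these were the only ones called in any of the 4 comparisons. Over all genes tested, 2.36% were called higher in adapted/B6129SF1, 2.42% in adapted/C57BL/6 and 2.53% in both adapted groups. In adapted/C57BL/6 the log2 fold change was 0.63 for Il12rb2 and 0.53 for Il18r1 (adjusted p = 0.120 and 0.251, limma). Of 7 effector transcription factor genes tested, 0 were called in any comparison, and Tbx21, the T-box partner of Eomes, was at most 0.817 FPKM.

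The genes whose profile over the 9 tumors was most like the mean log2(FPKM + 1) of the 8 genes tested were Ass1 (Pearson's r 0.98), Pycr1 (0.98), Il2rb (0.98), Cd27 (0.98) and Zbtb32 (0.98), the highest among all other genes tested. Ass1, which encodes argininosuccinate synthase, was 3.87, 2.04 and 4.82 FPKM in the original/B6129SF1, 4.43, 9.80 and 10.3 in the adapted/B6129SF1 and 12.2, 9.27 and 16.7 in the adapted/C57BL/6 tumors. Il2rb, the receptor chain shared by interleukins 2 and 15, was 3.00, 1.02 and 2.79, then 2.49, 7.29 and 7.12, then 9.20, 5.34 and 7.74 FPKM in these groups. Both were low in original/B6129SF1 replicate 2 and adapted/B6129SF1 replicate 1, as the cytotoxic genes were. Pycr1, Cd27 and Zbtb32 were at most 0.764, 0.343 and 0.299 FPKM in the original/B6129SF1 tumors. Like Gzmk, Ifng and Klrk1 among the 8 genes, they passed the filter through the adapted tumors alone. Group means were not subtracted here, so the coefficients also hold the differences between groups. The coefficients describe 9 tumors and were the largest of a search over all genes tested.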

How the data were processed

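RNA of 9 orthotopic tumors was measured, 3 per group, and groups and replicate numbers were taken from the sample labels. Per the labels and the paper's methods, the authors checked reads with FastQC, aligned them to mm10 with HISAT2 and deposited FPKM values made with Cuffnorm; the annotation is not given in the sources used here. FPKM values are not counts, so the absolute depth is unknown and no count test was used. Relative depth was read from steps between low values, with 35 to 146 of 987 to 1172 low genes on the main step. No pair of tumors had equal values for more than 0.0487% of the genes tested.

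The log2(FPKM + 1) values were filtered at 1 FPKM in 3 tumors, and tested with limma 3.58.1 (lmFit, eBayes with a trend; R 4.3.3), which was also tested on simulated data. Benjamini-Hochberg adjustment ran over all 10263 genes. Exact permutation tests used scipy 1.17.1 in Python 3.11.15. The members and gene lists were chosen with earlier results of these data known, so their counts are descriptions. Named genes were the members, the genes of each list that were called in any comparison, defining genes of each list, and the 5 genes most like the members; Gzmc to Gzmg, Tg, Pax8, Nkx2-1, Tshr, Slc5a5 and Foxe1 were named after their values were seen. Alternatives were other pseudocounts (0.1 and 0.5), filters, scalings, models and thresholds, and each tumor left out. No mouse genome was used here, so coordinates and sequences are not given.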

Additional observations from a re-analysis of the deposited data

How the results depend on the processing

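Gzmb in adapted/C57BL/6 against original/B6129SF1 was called under every alternative tried, with log2 fold changes of 2.02 to 2.78. The number of members called in adapted/B6129SF1 against original/B6129SF1 was 1, and it was 2 with a pseudocount of 0.1 and 0 without a filter, with quantile normalization, with only the compared groups, with the replicate block and without the tumors with over 1% muscle. In adapted/C57BL/6 it was 4, and 7 with only the compared groups. For both adapted groups it was 4, and 2 without the muscle tumors. Leaving out single tumors gave 0 to 4 members in adapted/B6129SF1, 1 to 7 in adapted/C57BL/6, 0 to 0 in adapted/C57BL/6 against adapted/B6129SF1 and 1 to 7 in both. The same gave 141 to 358, 156 to 347, 0 to 6 and 221 to 370 calls over all genes, against 330, 317, 3 and 348. An adjusted p alone gave 850, 693 and 1221 calls in adapted/B6129SF1, adapted/C57BL/6 and both adapted groups. For adapted/C57BL/6 against adapted/B6129SF1 there were 1 without a filter, 0 with only the compared groups and 0 with the replicate block.

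Tumors with the same number come from different animals, and the correlations of their deviations ranged from -0.388 to 0.614, so the numbers were not taken as pairs. With the replicate block, calls over all genes were 242 in adapted/B6129SF1 and 245 in adapted/C57BL/6, and 0 and 3 members were called. Ifng in adapted/C57BL/6 then had an adjusted p of 0.0666, Nkg7 in adapted/B6129SF1 0.0710 and Klrk1 in both adapted groups 0.0778, by limma.

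Differences that were never called changed sign in places. With single tumors left out, Prf1 ranged from -0.42 to 0.36 in adapted/B6129SF1 and from -0.15 to 0.63 in both adapted groups. In adapted/C57BL/6 against adapted/B6129SF1 the same ranges were -0.61 to 0.28 for Gzmk, -0.40 to 0.16 for Klrk1, -0.15 to 0.56 for Klrd1 and -0.11 to 0.59 for Nkg7. Prf1 in adapted/B6129SF1 was -0.12 with quantile normalization. Between the adapted groups Gzmk was 0.058 with a pseudocount of 0.1, and Klrk1 was 0.00044 with that pseudocount, 0.021 with quantile normalization and 0.047 without the muscle tumors. In both adapted groups, Gzma was not called without original/B6129SF1 replicate 2 or 3 (adjusted p = 0.0619 and 0.0814), Gzmb without original/B6129SF1 replicate 1 (0.0605) or the muscle tumors (0.0501), and Nkg7 without original/B6129SF1 replicate 2 (0.0505), by limma. With Ptprc as the reference, the group means of the tumor medians of the members differed by -0.060, 0.36, 0.42 and 0.15. The cause of these changes was not tested. With 3 tumors a group the precision is limited, and at levels under 1 FPKM the log2 scale compresses differences.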
